A study of Mus musculus with 37 samples.

Results

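The endoplasmic reticulum (ER) stress chaperone genes described here were the 10 genes Hspa5, Hsp90b1, Pdia4, Pdia6, Sdf2l1, Dnajb9, Creld2, Manf, Herpud1 and Xbp1, chosen by name from the 56748 genes of an RNA-seq table of mouse left ventricle. Each name matched 1 protein-coding gene. All 10 passed the filter on low values, which left 16579 genes for testing. Naïve C57BL/6J mice (anesthesia only, n = 5) were compared with 2 interventions on days 0.5, 1, 3 and 7 (n = 4 at each time). Adr mice, labelled sham, were anesthetised, ventilated, injected with saline into the left ventricle and then given adrenaline. Arrest mice received potassium chloride, remained in asystole and were resuscitated with adrenaline and chest compressions. Naïve mice therefore lacked ventilation, the injection and adrenaline, all of which the Adr and Arrest mice shared, and both sexes were used at 8 to 10 weeks of age. RNA came from whole ventricular tissue with the apex removed, so fewer cells of a type and less RNA per cell cannot be told apart.

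Secreted and membrane proteins fold in the ER. Hspa5 (BiP) holds unfolded chains and also binds the stress sensors of the ER membrane, and when unfolded protein accumulates these sensors start the unfolded protein response. In that response the enzyme Ern1 (IRE1) splices Xbp1 mRNA into the form that encodes an active transcription factor, Atf6 is cut to release another, and Eif2ak3 (PERK) slows translation and favours Atf4. Chaperones, oxidoreductases and degradation factors are the known targets. In heart muscle the ER is continuous with the calcium-storing sarcoplasmic reticulum. The table gives 1 value a gene, so spliced and unspliced Xbp1 were not separated.

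Factors of this response are known to bind a promoter element, ERSE (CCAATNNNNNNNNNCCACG), and its relative ERSE-II (ATTGGNCCACG). RefSeq windows of 300 bases around the gene start (build GRCm38.p6, from 250 bases before to 50 after) were at hand for 9 of the 10 genes, and both strands were searched. ERSE was in 4 of these 9 windows (Hspa5, Hsp90b1, Pdia6 and Creld2), against 0.119% of all 32851 windows, and ERSE-II in 1 of 9 (Herpud1), against 0.0365%. The letters TGACGTGG, the core of a further element known for XBP1, were in 0 of the 9 and in 0.676% of all windows. The shorter letters CCAAT and CCACG, which are part of ERSE, were each in 8 of the 9 and in 37.4% and 32.8% of all windows. No full match was found in the windows of Sdf2l1, Pdia4, Xbp1 and Dnajb9. Their Pearson's r with Hspa5, group means subtracted, was 0.94, 0.88, 0.85 and 0.53. The 5 windows with a full match are shown, and that of Sdf2l1 as the closest to Hspa5 of those without a match. They lie at chr2:34771840-34772139 (plus strand) for Hspa5, chr10:86705395-86705694 (minus strand) for Hsp90b1, chr12:17266339-17266638 (plus strand) for Pdia6, chr15:88819396-88819695 (plus strand) for Creld2, chr8:94386179-94386478 (plus strand) for Herpud1 and chr16:17132334-17132633 (minus strand) for Sdf2l1. Each is written 5′ to 3′ on the strand of its gene, with the matches in capitals.
Hspa5: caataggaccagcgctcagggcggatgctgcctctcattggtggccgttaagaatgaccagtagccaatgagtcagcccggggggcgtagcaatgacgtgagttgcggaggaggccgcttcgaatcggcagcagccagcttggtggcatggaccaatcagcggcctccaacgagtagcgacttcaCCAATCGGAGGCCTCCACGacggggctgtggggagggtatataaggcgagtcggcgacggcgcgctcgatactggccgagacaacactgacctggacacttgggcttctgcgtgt
Hsp90b1: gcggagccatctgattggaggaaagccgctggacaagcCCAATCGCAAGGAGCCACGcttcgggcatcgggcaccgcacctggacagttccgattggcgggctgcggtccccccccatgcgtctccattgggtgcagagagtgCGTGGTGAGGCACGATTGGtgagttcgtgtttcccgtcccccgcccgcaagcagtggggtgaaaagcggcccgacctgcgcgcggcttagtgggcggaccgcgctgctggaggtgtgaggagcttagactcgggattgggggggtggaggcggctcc
Pdia6: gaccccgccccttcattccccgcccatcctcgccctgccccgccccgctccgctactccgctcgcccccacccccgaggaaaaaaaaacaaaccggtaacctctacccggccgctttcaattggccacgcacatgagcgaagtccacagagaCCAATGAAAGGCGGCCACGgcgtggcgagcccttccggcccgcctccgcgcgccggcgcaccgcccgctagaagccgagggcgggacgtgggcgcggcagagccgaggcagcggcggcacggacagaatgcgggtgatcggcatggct
Creld2: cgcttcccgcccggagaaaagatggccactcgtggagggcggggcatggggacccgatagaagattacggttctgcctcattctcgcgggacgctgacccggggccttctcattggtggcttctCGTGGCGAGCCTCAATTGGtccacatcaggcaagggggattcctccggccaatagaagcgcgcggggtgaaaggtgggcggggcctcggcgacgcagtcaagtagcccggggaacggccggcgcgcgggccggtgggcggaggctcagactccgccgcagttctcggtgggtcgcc
Herpud1: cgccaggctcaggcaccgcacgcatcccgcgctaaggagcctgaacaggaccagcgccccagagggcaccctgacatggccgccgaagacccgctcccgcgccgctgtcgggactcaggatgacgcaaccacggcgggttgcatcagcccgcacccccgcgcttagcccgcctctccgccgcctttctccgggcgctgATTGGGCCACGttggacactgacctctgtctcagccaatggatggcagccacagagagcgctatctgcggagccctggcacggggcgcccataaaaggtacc
Sdf2l1: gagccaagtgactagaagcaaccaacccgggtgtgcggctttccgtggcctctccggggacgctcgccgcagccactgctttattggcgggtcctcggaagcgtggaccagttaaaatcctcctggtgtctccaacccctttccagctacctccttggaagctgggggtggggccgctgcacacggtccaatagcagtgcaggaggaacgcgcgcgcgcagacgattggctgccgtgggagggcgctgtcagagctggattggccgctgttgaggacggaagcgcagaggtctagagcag
The Hspa5 match began 65 bases before the gene start and the Pdia6 match 98 bases before it. Hsp90b1 had 2 matches, 1 on each strand. The 10 genes were chosen as ER stress genes, and factors of this response are known to bind these elements. A share above that of all windows is therefore no separate evidence. A match is a description of the letters only, and binding was not measured.

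Libraries held 13.2 to 30.2 M (M, 1e6) fragments counted on genes, and even the least covered member, Sdf2l1, had 52 to 1717 fragments a library (median 157). Hspa5 had 3628 to 31175. Ventricular tissue markers were present, with summed ventricular muscle markers of 8250 to 18363 FPKM (fragments per kilobase of transcript per 1e6 fragments) in 36 libraries. Adr 3-day replicate 3 stood apart, with 3724 FPKM for these markers, 1155 FPKM for fibroblast markers (193 to 633 elsewhere), 2893 FPKM for macrophage markers (400 to 1373 elsewhere) and 9.36% of fragments on mitochondrial genes (20.8% to 30.9% elsewhere). Its part in the Adr 3-day values was not tested, and the comparisons of Adr 3-day hearts are also given without it. The sum of 4 atrial muscle markers was high in Adr 1-day replicate 2 (693 FPKM) and in Adr 3-day replicate 3 (485 FPKM), against a median of 38.3 FPKM over all libraries and 13.8 to 32.4 FPKM in Naïve hearts. Its r with Hspa5, group means subtracted, was 0.04, and its part in the members' levels was not tested.

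None of the 10 genes passed the test against Naïve in any group. With limma on log2(FPKM + 1), fitted over all tested genes with Benjamini-Hochberg adjustment at 0.05, 0 of 160 tests of a member in a comparison were called (10 members in 16 comparisons), and 17 had an unadjusted p at or under 0.05, as did 9.75% of the tests of all genes in the same comparisons. The share of all genes called against Naïve was 3.2% in Arrest 0.5-day, 7.11% in Arrest 1-day and 0.139% in Arrest 3-day hearts, and 0.187% in Adr 0.5-day and 0.627% in Adr 1-day hearts. It was 0.0% in Adr 3-day, Adr 7-day and Arrest 7-day hearts, where 2297, 1023 and 852 genes had an unadjusted p at or under 0.05. Without Adr 3-day replicate 3 the share called was 5.5% in Arrest 0.5-day and 10.4% in Arrest 1-day hearts, and still no member was called. The test for any difference among the 9 groups called 0 of 10 members and 3.89% of all genes, and the lowest adjusted p of a member was 0.349 (Dnajb9). Groups accounted for 17.7% (Pdia6) to 35.5% (Xbp1) of the variance of a member over the 37 libraries, with a median of 25.9% over all genes tested. A p that misses the threshold does not show that levels were alike, and standard errors of the log2 differences from Naïve ran from 0.20 (Xbp1) to 0.70 (Sdf2l1).

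**Figure D1:**
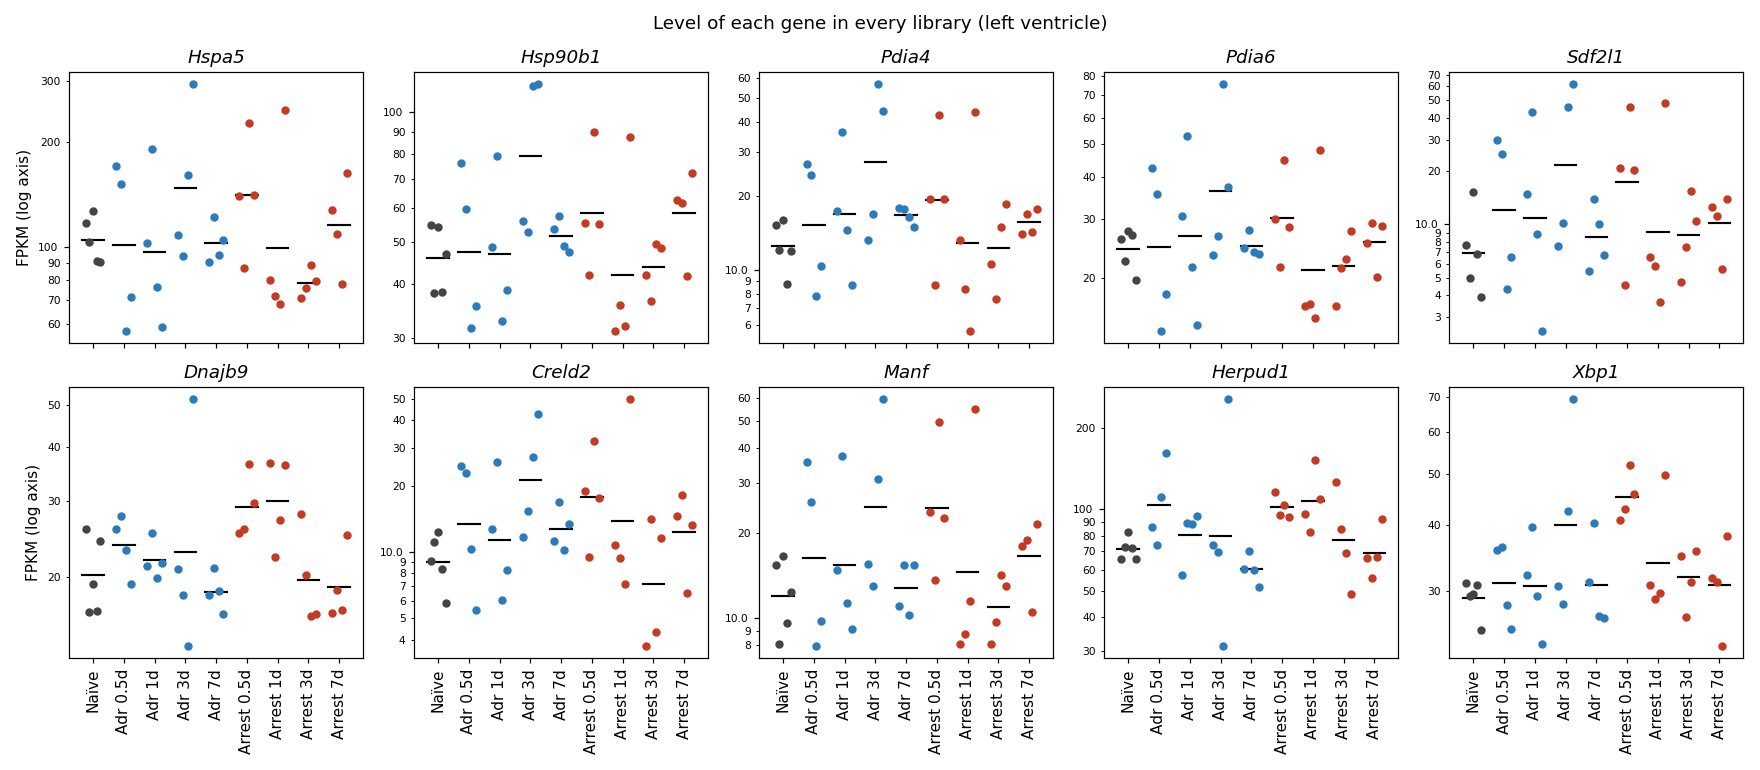
FPKM of each gene (log axis) in every library of the 9 groups, 1 point a library, with a line at the geometric mean of the group. Naïve libraries of Hspa5 sat between 90.3 and 127 FPKM, and the Adr and Arrest groups of 0.5, 1 and 3 days held both the highest and the lowest points of most genes.

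Hspa5, the main chaperone of the ER lumen, was the most abundant member at 117 FPKM on average. In Naïve hearts it stood at 117, 103, 127, 90.7 and 90.3 FPKM in replicates 1 to 5. In Arrest 0.5-day hearts the values were 139.9, 87.0, 226.5 and 141.3 FPKM. Thus 3 of these 4 libraries were above every Naïve library and 1 was below them all, and the difference was 0.42 ± 0.36 log2 (SE, adjusted p = 0.582). At 1 day the Arrest values were 80.1, 72.2, 68.2 and 246.9 FPKM, with 3 libraries below and 1 above every Naïve value. Adr hearts were spread in the same way, at 170.7, 151.2, 57.3 and 71.4 FPKM at 0.5 days and 102.3, 191.6, 76.3 and 58.8 FPKM at 1 day. Arrest 3-day hearts, at 71.3, 76.2, 88.4 and 79.5 FPKM, were all below the lowest Naïve heart (log2 difference -0.41 ± 0.36, adjusted p = 0.668). Hspa5 was the 1 member of 10 with this separation, and 1.77% of all genes showed it. By 7 days Adr hearts (90.6 to 122 FPKM) lay within the Naïve range, and Arrest hearts ran from 78.0 to 163.5 FPKM.

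Hsp90b1 (GRP94), the ER member of the HSP90 family, averaged 46.4 ± 8.13 FPKM in Naïve hearts (SD, n = 5) and ranged from 31.2 FPKM (Arrest 1-day replicate 1) to 116 FPKM (Adr 3-day replicate 4). Its 4 Arrest 1-day values were 31.2, 35.7, 32.0 and 87.3 FPKM, again with 1 library far above the other 3. Its largest difference from Naïve was in Adr 3-day hearts, 0.78 ± 0.29 log2 (unadjusted p = 0.0122, adjusted p = 0.236). Without Adr 3-day replicate 3 it was 0.60 ± 0.31 log2 (adjusted p = 0.715).

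The oxidoreductases Pdia4 and Pdia6, which form and rearrange disulfide bonds, followed the same libraries. Pdia4 stood at 8.74 to 15.9 FPKM in Naïve hearts, at 19.4, 8.68, 42.6 and 19.5 FPKM in Arrest 0.5-day hearts and at 13.2, 8.4, 5.68 and 43.9 FPKM in Arrest 1-day hearts. Within that last group the highest library had 7.74 times the lowest. Pdia6 ran from 19.7 to 27.5 FPKM in Naïve hearts and reached 48.0 FPKM in Arrest 1-day replicate 4, while the other 3 libraries of that group were at 15.1 to 16.7 FPKM. At 7 days both genes were narrow in Adr hearts, at 15.0 to 17.9 FPKM for Pdia4 and 23.5 to 27.7 FPKM for Pdia6.

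The co-chaperones Sdf2l1 and Dnajb9 (ERdj4), which work with Hspa5, differed from each other. Sdf2l1 had the widest range of the members, from 2.52 FPKM (Adr 1-day replicate 4) to 61.8 FPKM (Adr 3-day replicate 4), a ratio of 24.5. In Naïve hearts it was at 7.7, 5.0, 15.3, 6.8 and 3.9 FPKM, in Arrest 0.5-day hearts at 20.9, 4.54, 45.8 and 20.3 FPKM, and in Adr 1-day hearts at 14.9, 43.1, 8.8 and 2.52 FPKM. Libraries of the same group thus differed more than group means did, and the Arrest 0.5-day difference of 1.22 ± 0.70 log2 did not pass (adjusted p = 0.365). Dnajb9 was steadier. It averaged 20.5 ± 4.29 FPKM in Naïve hearts (SD, n = 5), 29.3 ± 5.16 FPKM in Arrest 0.5-day hearts and 30.6 ± 7.1 FPKM in Arrest 1-day hearts (SD, n = 4), with 19.2 ± 3.98 FPKM at 7 days. The Arrest 1-day values of 36.7, 22.3, 27.1 and 36.3 FPKM overlapped the Naïve range of 16.6 to 25.8 FPKM in 1 library. Its difference from Naïve was 0.55 ± 0.23 log2 (adjusted p = 0.146), and from Arrest 7-day hearts 0.63 ± 0.24 log2 (adjusted p = 0.183). Without Adr 3-day replicate 4, whose value of 51.5 FPKM stood against 13.9 to 20.9 FPKM in the other 3, the standard error was 0.17 in place of 0.23 log2 and the Arrest 1-day difference of Dnajb9 from Naïve passed (adjusted p = 0.0467).

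Creld2 and Manf encode proteins of the ER. Creld2 stood at 5.88 to 12.3 FPKM in Naïve hearts and reached 49.7 FPKM in Arrest 1-day replicate 4, against 7.2 to 10.8 FPKM in the other 3 libraries of that group. Manf stood at 8.11 to 16.6 FPKM in Naïve hearts and at 23.8, 13.6, 49.3 and 22.6 FPKM in Arrest 0.5-day hearts, where 3 of 4 libraries were above every Naïve library. That difference of 0.98 ± 0.48 log2 did not pass (adjusted p = 0.272).

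Herpud1, a membrane protein that organises the degradation of misfolded ER proteins, took another course. Naïve hearts were at 65.6, 72.8, 82.4, 72.4 and 65.4 FPKM. Arrest 0.5-day hearts were at 116, 95.6, 103.5 and 94.0 FPKM and Arrest 1-day hearts at 96.0, 82.8, 152 and 109 FPKM, so that every library of both groups was above every Naïve library. The differences, 0.51 ± 0.33 and 0.58 ± 0.33 log2, did not pass (adjusted p = 0.439 and 0.312). Their standard errors come from the fit of all groups. The SD of Herpud1 was 1.23 log2 in Adr 3-day hearts. It was 0.13 in Naïve, 0.14 in Arrest 0.5-day and 0.37 log2 in Arrest 1-day hearts. In limma fits of the 2 groups alone the 0.5-day difference passed (adjusted p = 0.0296) and the 1-day difference did not. In Adr hearts at 0.5 days Herpud1 was at 86.4, 73.7, 111.6 and 161.7 FPKM, and the 2 libraries with the highest Herpud1 (replicates 3 and 4) were those with the lowest Hspa5. The Adr 3-day group held both extremes of all 37 libraries, 31.4 FPKM in replicate 3 and 255 FPKM in replicate 4.

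Xbp1, the transcription factor, showed the smallest p of all members. Naïve hearts were at 31.0, 29.4, 29.5, 30.8 and 25.2 FPKM. Arrest 0.5-day hearts were at 40.9, 42.9, 51.9 and 45.7 FPKM, all above every Naïve heart and above the Adr 0.5-day hearts at 35.9, 36.4, 28.2 and 25.4 FPKM. The difference from Naïve was 0.62 ± 0.20 log2 (unadjusted p = 0.00351), which missed the threshold after adjustment (adjusted p = 0.0752). It passed without Adr 3-day replicate 4 (adjusted p = 0.0372) and in a fit of the 2 groups alone (adjusted p = 0.0163), where Herpud1 also passed (adjusted p = 0.0296). Against Adr hearts of the same time the difference was 0.52 ± 0.21 log2 (unadjusted p = 0.0159, adjusted p = 1.0). By 1 day 3 of the 4 Arrest libraries (29.0 to 30.8 FPKM) were back within the Naïve range and replicate 4 was at 49.8 FPKM.

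In Arrest 0.5-day hearts, all 10 members had estimates above Naïve, with a median of 0.55 log2 against 0.03 over all genes. Those with an unadjusted p at or under 0.05 were 3 of 10 (Xbp1, Dnajb9 and Manf), against 18.1% of all genes. Members whose libraries all lay above Naïve numbered 2 of 10 at 0.5 days (Xbp1 and Herpud1), against 4.49% of all genes, and 1 of 10 at 1 day (Herpud1), against 5.69%. The corresponding count above Adr at 0.5 days was 1 of 10 (Xbp1), against 1.72% of all genes. These counts and estimates are not of 10 separate observations, since most members moved together from library to library, as described below.

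**Figure D2:**
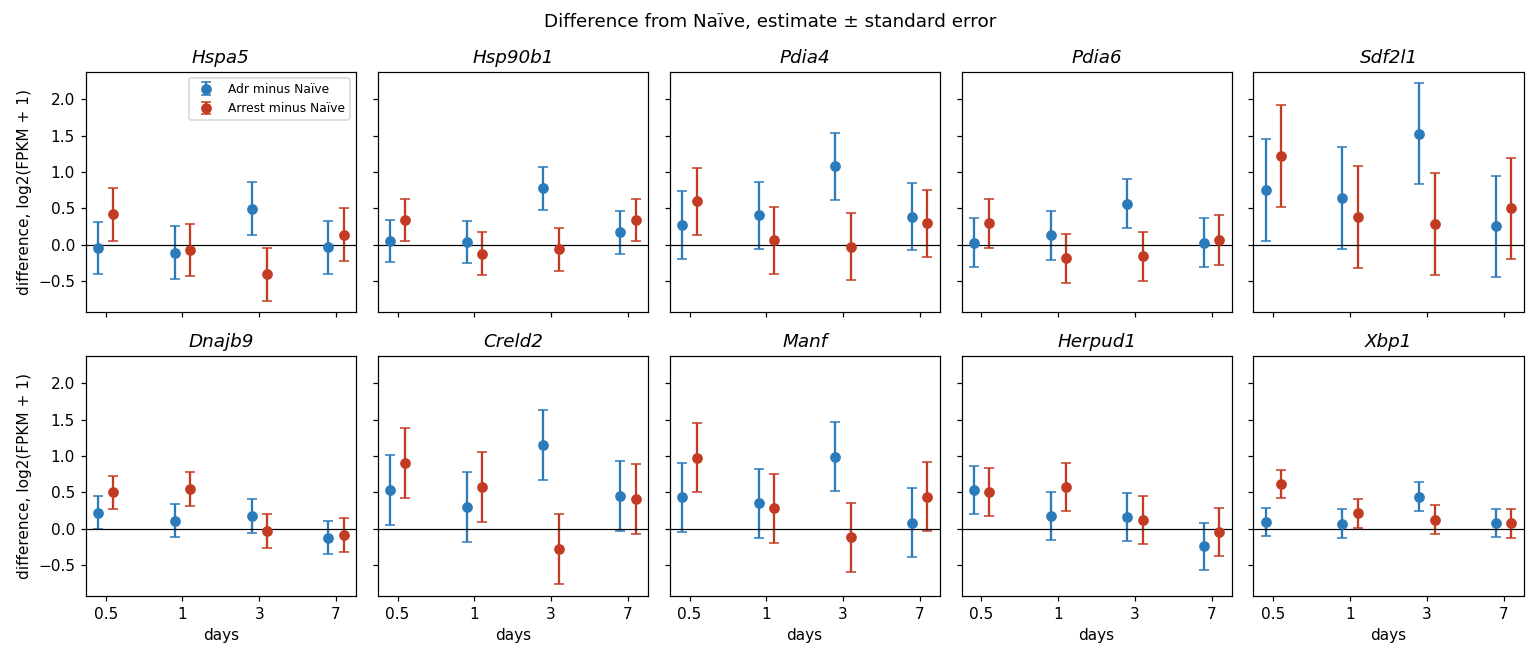
Difference from Naïve in log2(FPKM + 1) by day for Adr (blue) and Arrest (red), as the limma estimate with its standard error. The Arrest 0.5-day estimates were all above 0, from 0.30 (Pdia6) to 1.22 (Sdf2l1), and the Adr 3-day estimates reached 1.53 (Sdf2l1), or 1.19 without Adr 3-day replicate 3.

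Adr and Arrest hearts, which shared anesthesia, ventilation, the injection and adrenaline, were set against each other at each time. Potassium chloride, asystole and chest compressions came together in the Arrest mice and cannot be told apart. No member was called at any time, and of all genes 0.0% were called at 0.5, 1 and 3 days, where 642, 1093 and 891 had an unadjusted p at or under 0.05, and 0.00603% at 7 days. At 3 days all 10 estimates were lower in Arrest, with a median of -0.87 log2, and 5 of 10 had an unadjusted p at or under 0.05, against 5.37% of all genes. Again these are not 10 separate observations, since most members moved together from library to library. Hspa5 and Hsp90b1 had every Arrest library below every Adr library, as did 0.971% of all genes. Adr 3-day hearts also lay above Naïve, with a median of 0.67 log2 and 6 of 10 members with an unadjusted p at or under 0.05, against 13.9% of all genes. Both comparisons use the same 4 Adr libraries, of which replicates 1 and 2 were near Naïve (Hspa5 at 108 and 93.7 FPKM) and replicates 3 and 4 were high (161.1 and 293.9 FPKM). Without replicate 3, 0 of 10 members had an unadjusted p at or under 0.05 for Adr 3-day hearts against Naïve (7.29% of all genes), and 3 of 10 for Arrest against Adr hearts (5.69%). Without replicate 4 these counts were 0 (14.7% of all genes) and 1 (7.28%). Pdia6 differed from Naïve by 0.56 log2 in Adr 3-day hearts with replicate 3 and by 0.22 log2 without it, and Herpud1, lowest in that library, by 0.17 and 0.61 log2. Without replicate 3 the median difference of Adr 3-day hearts from Naïve was 0.61 log2, without replicate 4 it was 0.57 log2, and without both it was 0.13 log2. The median difference of Arrest from Adr hearts at 3 days became -0.72, -0.68 and -0.23 log2 in the same order, and 3 of 10 members then had estimates above 0 with both left out. The study left out 1 Adr 3-day sample of poor quality. The labels do not name it or say whether it is among these 4 libraries, so all 4 were kept here.

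Between days within an arm no member was called either. Of all genes, 0.0% were called between 0.5 and 1 day in both arms, 0.0422% between Adr 1-day and 7-day hearts and 1.88% between Arrest 1-day and 7-day hearts. The order of groups by mean level had Adr 3-day hearts first for 7 members, Arrest 1-day hearts for Dnajb9 and Herpud1, and Arrest 0.5-day hearts for Xbp1. Without Adr 3-day replicate 3, Adr 3-day hearts came first for 5 members (Herpud1 among them), Arrest 0.5-day hearts for 4 and Arrest 1-day hearts for Dnajb9. Of the 80 pairs of groups that were neighbours in the order of a member, 0 had an exact two-sided permutation p at or under 0.05. The lowest was 0.0571, where 4 against 4 libraries can reach 0.029 and 4 against 5 can reach 0.0079. Between the first and the last group of each order, which are extremes picked from 9 groups and so give a p that is too small, 4 of 10 members reached 0.05 in the same exact permutation test. By that exact test they were Xbp1 (Arrest 0.5-day above Naïve, p = 0.00794), Hspa5 (Adr 3-day above Arrest 3-day, p = 0.0286), and Dnajb9 and Herpud1 (Arrest 1-day above Adr 7-day, p = 0.0286 each).

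The largest pattern in these genes lay between libraries of the same group. In Adr 0.5-day hearts replicates 1 and 2 had 9 of 10 members above every Naïve library, where 16.2% and 15.2% of all genes lay. Replicates 3 and 4 had 1 of 10 above (21.0% and 19.7% of all genes) and 5 and 4 below every Naïve library (14.9% and 13.6% of all genes). All 10 members were above every Naïve library in 4 libraries (Arrest 0.5-day replicates 3 and 4, Arrest 1-day replicate 4 and Adr 3-day replicate 4), where 17.7% to 19.5% of all genes were. Of the 32 libraries other than Naïve, 10 had at least 8 members above every Naïve library and 18 had 3 or fewer, while the share of all genes above every Naïve library ran from 10.7% to 27.8% over these 32. The SD within groups was 1.11 log2 for Sdf2l1, 0.76 for Creld2, 0.75 for Manf, 0.73 for Pdia4 and 0.57 for Hspa5, against a median of 0.28 over the 11550 genes with a mean of at least 1 FPKM. Those SDs were at the 99.2nd, 96.5th, 96.3rd, 95.9th and 91.4th percentiles of these genes. Xbp1 (0.30 log2) and Dnajb9 (0.36 log2) were at the 55.9th and 70.1st.

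**Figure D3:**
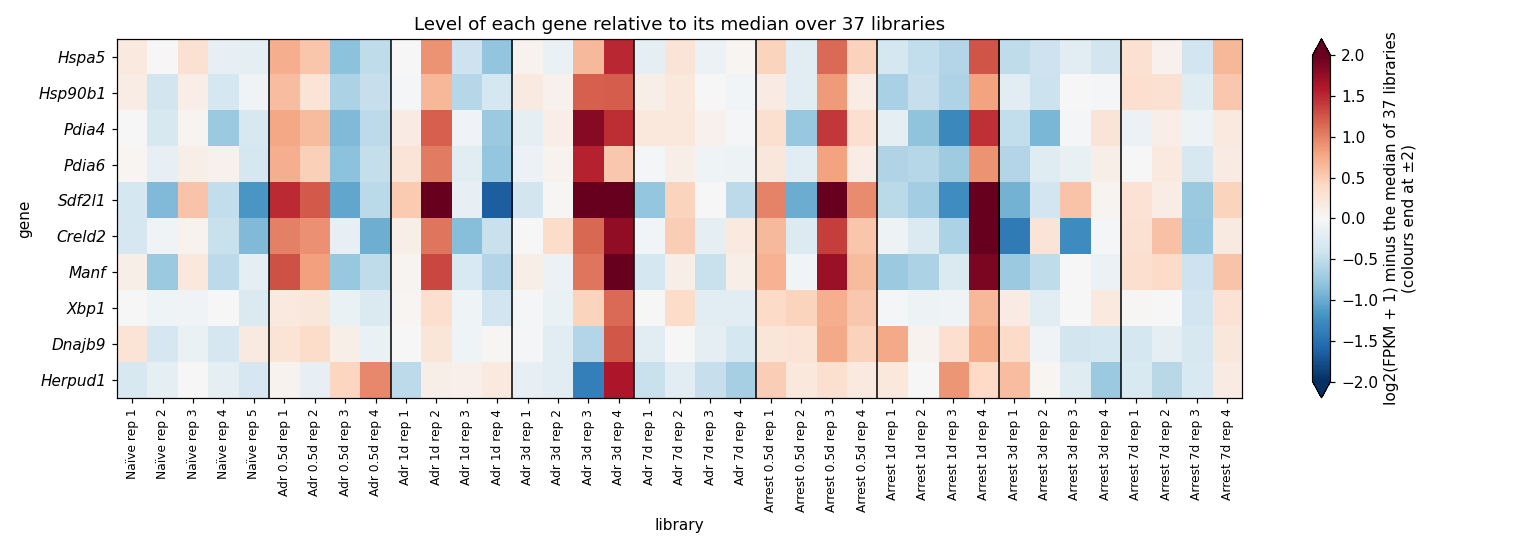
Level of each gene in each of the 37 libraries as log2(FPKM + 1) minus its median over all libraries, with groups divided by lines. Whole columns turned red or blue together for the upper 8 genes, as in Adr 3-day replicate 4 and Arrest 1-day replicate 4, while Herpud1 in the bottom row departed from them, as in Adr 3-day replicate 3.

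After group means were subtracted, 8 members moved together from library to library. Over 37 libraries the deviations of Hspa5 had a Pearson's r of 0.96 with Manf, 0.94 with Sdf2l1, 0.93 with Hsp90b1, 0.88 with Pdia4, and 0.85 with Pdia6, with Xbp1 and with Creld2. The Spearman's rho of these 7 genes with Hspa5 was 0.81 to 0.95. Over the 28 pairs of the 8 genes r ran from 0.68 to 0.96 (median 0.85). The 8 are the members other than Dnajb9 and Herpud1, whose r with Hspa5 was lower. The range among the 8 is therefore set in part by that choice. Dnajb9 was in part separate (0.53 with Hspa5, 0.62 with Xbp1), and Herpud1 stood apart (0.11 with Hspa5, -0.32 with Pdia6). Herpud1 was closest to Dnajb9, at 0.64. Both genes were lowest of all libraries in Adr 3-day replicate 3 (Herpud1 31.4 FPKM, Dnajb9 13.9 FPKM). Both were highest in Adr 3-day replicate 4 (255 and 51.5 FPKM). The r of this pair was not recomputed without these libraries. These are descriptions over libraries that share a normalization, and no p is given.

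**Figure D4:**
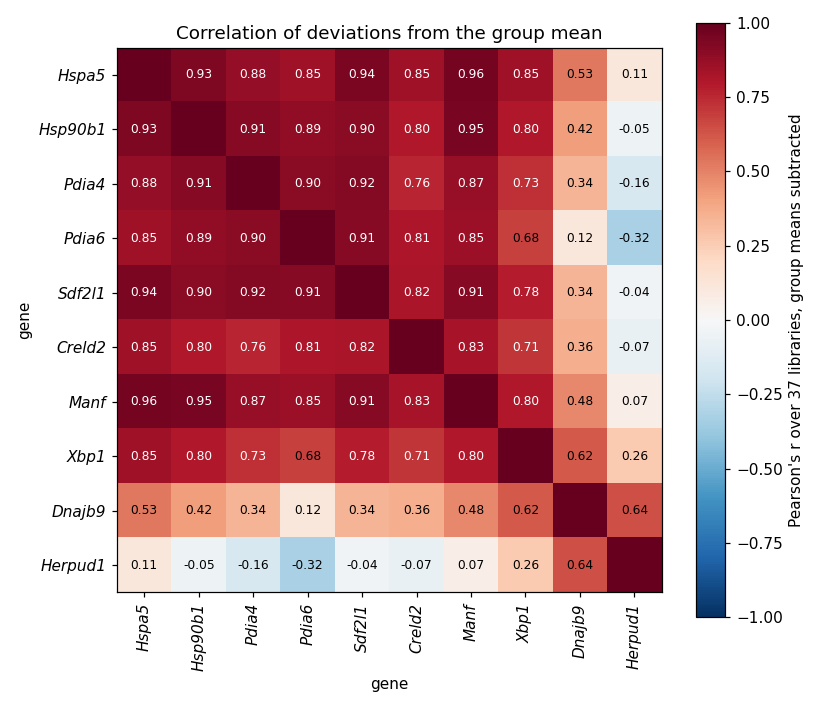
Pearson's r between the deviations of each pair of genes from their group means over 37 libraries. Values among the upper 8 genes were 0.68 to 0.96, and the row of Herpud1 ran from -0.32 to 0.64.

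The 2 libraries with Hspa5 farthest from its median were Adr 3-day replicate 4 (293.9 FPKM) and Arrest 1-day replicate 4 (246.9 FPKM). Without them, r with Hspa5 was 0.79 to 0.94 for the 7 close genes, 0.40 for Dnajb9 and -0.15 for Herpud1. Leaving out Adr 3-day replicate 3 gave 0.85 to 0.96 for those 7. The link of Dnajb9 with Hspa5 fell to 0.40 without Adr 3-day replicate 4, and that of Herpud1 to -0.22. Deviations of Hspa5 had an r of 0.18 with those of the fragments counted on genes, -0.19 with the mitochondrial share and 0.29 with the number of genes above 0.

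Among the 11549 other genes with a mean of at least 1 FPKM, the median r with the deviations of Hspa5 was -0.0047 and 15 genes reached 0.8. Of these 15, 7 were members. The ranks of the members were 1 (Manf), 3 (Sdf2l1), 4 (Hsp90b1), 5 (Pdia4), 8 (Pdia6), 9 (Xbp1), 10 (Creld2), 147 (Dnajb9) and 3694 (Herpud1). The 5 genes outside the set most like the mean standardised level of the 10 members over 37 libraries were Hyou1 (r = 0.93), an ER chaperone of the HSP110 kind, Calr (0.84), the lectin chaperone calreticulin, Syvn1 (0.84), the ubiquitin ligase HRD1, Pdia3 (0.81), an oxidoreductase that works with calreticulin, and Cdk2ap2 (0.78). With group means subtracted their r was 0.95, 0.86, 0.85, 0.83 and 0.80. Hyou1 ran from 3.15 FPKM (Arrest 1-day replicate 3) to 21.9 FPKM (Adr 3-day replicate 4), and stood at 4.86 to 8.01 FPKM in Naïve hearts. None of these 5 genes passed the test in any group against Naïve or between Arrest and Adr.

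Wider lists of ER genes shared this movement to unequal degrees. Of 16 other lumenal and membrane chaperones, 9 had an r of at least 0.5 with Hspa5, with a median of 0.51, led by Hyou1 (0.96), Calr (0.87) and Canx (0.85), the membrane lectin calnexin. The counts at or above 0.5 were 3 of 14 for other thiol oxidoreductases, 5 of 20 for degradation from the ER, 4 of 24 for translocation, glycosylation and signal peptidase, and 2 of 16 for transport between ER and Golgi. Of the 6 sensors and processing enzymes 1 reached 0.5, Atf6b (0.56), a paralog of Atf6. Ern1 was at -0.05, Eif2ak3 at 0.13 and Atf6 at 0.21. In the PERK and ATF4 list the median was -0.08. Atf4 itself was at -0.08, Ddit3 (CHOP) at 0.60, and Ppp1r15a and Ddit4 at -0.51 and -0.61. The 10 sarcoplasmic reticulum genes had a median of 0.0002 and a range of -0.24 to 0.34, and 2 of 13 cytosolic heat shock genes reached 0.5. Over all genes the median was -0.0047 and the 95th percentile was 0.39, below the cut of 0.5. All these r values are of deviations from group means.

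**Figure D5:**
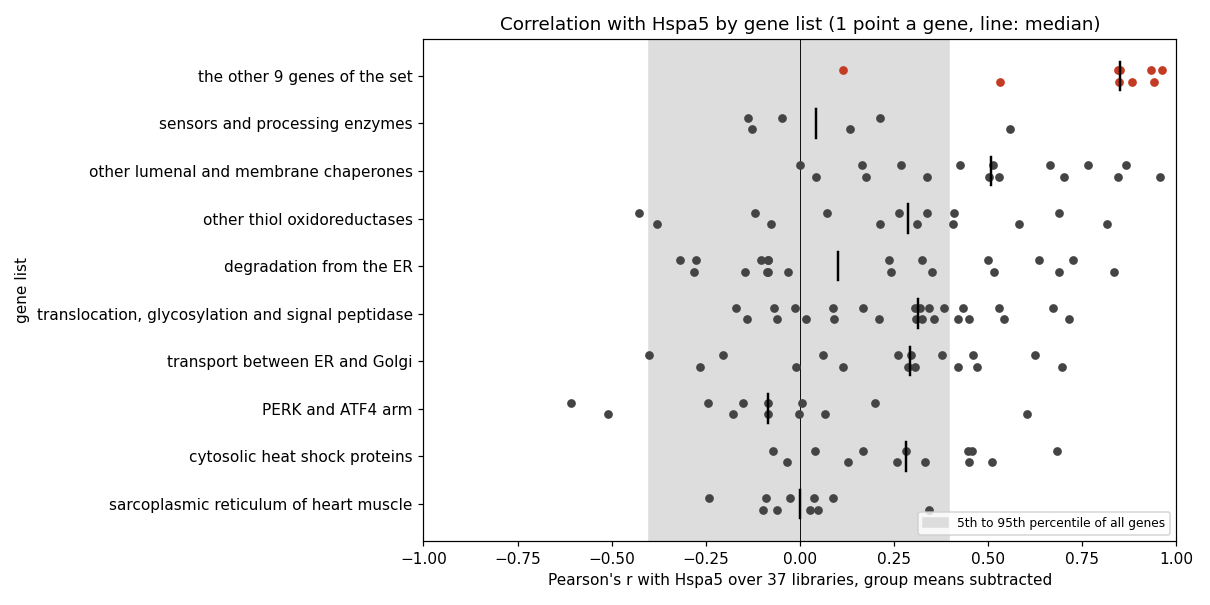
Pearson's r of each gene with Hspa5 over 37 libraries, group means subtracted, by gene list, with a line at the median of each list and the 5th to 95th percentile of all genes (-0.40 to 0.39) in grey. The other 9 members lay from 0.11 to 0.96, and the sarcoplasmic reticulum genes all lay within the grey band.

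By group, few genes of these lists were called, and those named here were chosen after their values were seen. The counts are to be read against the shares of all genes called in the same comparisons, 3.2% in Arrest 0.5-day and 7.11% in Arrest 1-day hearts, and with 0 to 2 genes a list nothing is read from them. In Arrest 0.5-day hearts 1 of 12 genes of the PERK and ATF4 list was called, Atf4, at 59.6 ± 16.1 FPKM (SD, n = 4) against 39.7 ± 6.68 FPKM in Naïve hearts (SD, n = 5), a log2 difference of 0.55 ± 0.15 (adjusted p = 0.0401). The list's median was 0.19 log2, against 0.03 over all genes. In Arrest 1-day hearts 1 of 16 other chaperones rose, Sdf2, the paralog of Sdf2l1, at 27.0 ± 3.82 FPKM (SD, n = 4) against 18.7 ± 4.09 FPKM (SD, n = 5), a log2 difference of 0.52 ± 0.16 (adjusted p = 0.0373), with a list median of -0.05 log2. In the same hearts Selenok rose among 21 degradation genes (0.49 ± 0.11 log2, adjusted p = 0.0061). Among 24 genes of translocation, glycosylation and signal peptidase, Ssr4, a subunit beside the translocation channel, rose by 0.66 ± 0.16 log2 (adjusted p = 0.00978) and Spcs1, of the signal peptidase, by 0.52 ± 0.12 log2 (adjusted p = 0.00988). Of 16 genes of transport between ER and Golgi, Sar1b, a GTPase of vesicle budding, rose by 0.66 ± 0.14 log2 (adjusted p = 0.00499) and Lman2, a cargo lectin, fell by 0.47 ± 0.13 log2 (adjusted p = 0.0214). Hspb1, a small cytosolic heat shock protein, rose at both times (0.88 ± 0.23 and 0.84 ± 0.23 log2, adjusted p = 0.0285 and 0.0209). None of the 6 sensors and processing enzymes and none of the 10 sarcoplasmic reticulum genes was called against Naïve or between Arrest and Adr.

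Markers of other cells were set beside the library pattern. The summed level of 4 endothelial markers had an r of -0.50 with the deviations of Hspa5 and ran from 140 to 151 FPKM in Naïve hearts and from 102 to 161 FPKM in Arrest 1-day hearts. The sum of 3 mesothelial markers had an r of 0.43 and was highest, 109 FPKM, in Arrest 1-day replicate 4. The other 12 lists lay between -0.35 and 0.26, with macrophages at 0.26, fibroblasts at 0.09, and plasma cells and B cells, which use this response when they secrete antibody, at 0.01. Their part in the members' levels was not tested.

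The ERSE element was also looked at from the side of the genes that hold it, after the members' values were seen. Besides the 4 members, 30 genes of the table had the element in a window and 10 of these had a mean of at least 1 FPKM. Their r with the deviations of Hspa5 had a median of 0.61, and 6 of the 10 reached 0.5 (Calr, Canx, Syvn1, Dnajc3, Ero1b and Alg12), while Acacb was at -0.28. Of these, Calr, Canx, Syvn1, Dnajc3 and Ero1b are also in the ER gene lists above, so they are not a separate set of genes. Alg12 lies next to Creld2 on the opposite strand and their windows overlap, so that 1 stretch of sequence serves both counts. The 7 expressed genes other than Herpud1 with ERSE-II had a median of 0.31, with 1 of 7 at or above 0.5 (Dnajb11). Over all genes the median was -0.0047 and the 95th percentile was 0.39.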

How the data were processed

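RNA from left ventricular tissue of 37 samples was sequenced as paired reads. According to the study's methods, read quality was assessed in FastQC and alignment was done in HISAT2. The authors deposited 1 table of FPKM (fragments per kilobase of transcript per 1e6 fragments) for 56748 genes, and the genome build and annotation are not given in the sources used here. Values multiplied by gene length were whole multiples of the worth of 1 fragment in 100.0% of values above 0 (within 0.1 of a fragment), from which 13.2 to 30.2 M (M, 1e6) fragments counted on genes a library were computed. FPKM are not counts, so no count model was used. Groups were taken from the sample labels. The labels do not tie the libraries to animals, so p-values measure the spread between these libraries. The table had 0 sample columns left unused.

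A gene was tested where 4 or more libraries reached 0.5 FPKM (16579 genes), on log2(FPKM + 1) with limma 3.58.1 in R 4.3.3 (variance trend, all 37 libraries in 1 fit, Benjamini-Hochberg adjustment over all genes, threshold 0.05). On this scale, changes of low genes are understated. The fit was tested on simulated data. Neighbouring groups were compared with exact two-sided permutation tests. Members and gene lists were chosen with earlier results of these data known. Named outside the members were the 5 genes of mean at least 1 FPKM with the highest Pearson's r to the members' mean standardised level, and list genes as stated. Alternatives covered scaling, pseudocount, filter, gene length, library weights, samples, covariates, replicate block and left-out libraries. Promoter windows came from RefSeq. The authors' own tests used DESeq2 and are not in the table.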

Additional observations from a re-analysis of the deposited data

Results flagged for a closer look

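In 6 of 90 sets of values (10 genes in 9 groups of 4 or 5 libraries), 1 library lay far from the others of its group by Dixon's criterion on log2(FPKM + 1), which flags about 1 set in 20 by chance. The sets are not independent, since the genes share libraries. Arrest 1-day replicate 4 was far above the other 3 libraries of its group for Hspa5 (246.9 FPKM against 68.2 to 80.1), Hsp90b1 (87.3 FPKM against 31.2 to 35.7), Pdia6 (48.0 FPKM against 15.1 to 16.7) and Xbp1 (49.8 FPKM against 29.0 to 30.8). Herpud1 was low in Adr 1-day replicate 1 (57.2 FPKM against 88.7 to 94.6). Xbp1 was low in Naïve replicate 5 (25.2 FPKM against 29.4 to 31.0). No member passed the test of a difference between Arrest and Adr at any time.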

How the results depend on the processing

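Counts of members called were recomputed 432 times over the 16 comparisons and the test across groups, and 424 stayed at 0. For a comparison of 2 groups, only the libraries of those groups and of the Adr 3-day group were left out 1 at a time. Other libraries also enter the shared estimate of the spread, and leaving them out was not tried for these comparisons. The fit of the 2 groups compared alone called 2 members in Arrest 0.5-day hearts against Naïve (Herpud1 and Xbp1), and 360 of 16579 genes. Leaving out 1 library at a time gave 0 to 1 in Arrest 0.5-day against Naïve (Xbp1), 0 to 1 in Arrest 1-day against Naïve (Dnajb9) and 0 to 1 for any difference among the 9 groups (Dnajb9), each 1 without Adr 3-day replicate 4. Leaving out both Adr 3-day replicates 3 and 4, an alternative added after the values were seen, called 1 member in each of these 3 and 1 in Arrest 1-day against 7-day hearts (Dnajb9). Of all genes, 3.33% were called in Arrest 0.5-day and 7.32% in Arrest 1-day hearts against Naïve without Adr 3-day replicate 4. With both left out these shares were 5.93% and 10.5%, and 4.2% between Arrest 1-day and 7-day hearts. The test across groups then called 1113 of 16395 genes. The standard error of the difference from Naïve fell from 0.20 to 0.17 log2 for Xbp1 and from 0.23 to 0.17 log2 for Dnajb9 without replicate 4, while the estimates were unchanged. Without Adr 3-day replicate 3 no member was called, while the genes called against Naïve went from 531 to 906 in Arrest 0.5-day, from 31 to 235 in Adr 0.5-day, from 104 to 417 in Adr 1-day and from 23 to 188 in Arrest 3-day hearts. The replicate block called 0 members in every comparison. The replicate numbers did not pair the samples, with correlations of deviations between same-numbered libraries of -0.29 to 0.27 (median 0.0016) and 1 of 37 libraries closest to its own number, and the block moved the genes called against Naïve from 531 to 280 in Arrest 0.5-day and from 1179 to 768 in Arrest 1-day hearts. Over all alternatives other than leaving out 1 library those counts ran from 235 to 972 and from 34 to 1947. Both lowest counts came with the number in the sample descriptions as covariate. That number was 70 to 95 in Arrest 1-day and 116 to 127 in Naïve libraries, so it cannot be told apart from that comparison. The count of 1947 came with library weights, and that of 972 without Adr 3-day replicates 3 and 4. The cause of these shifts was not tested. Of the 160 differences of members, 72 changed sign under at least 1 alternative, and none of the 160 was called. The correlations with Hspa5 under other scalings, another pseudocount and each library left out (chosen after seeing the data) were 0.79 or above for the 7 close members. Fragments a library limit the low members most, with 52 for Sdf2l1 in the shallowest case.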

Other observations

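The genes whose deviations from group means ran most against those of Hspa5 over 37 libraries were Fabp4 (r = -0.82), a fatty acid binding protein of endothelium and fat, Cirbp (-0.78), an RNA-binding protein induced by cold, Rab11b (-0.78), Pdk4 (-0.78), a kinase that limits pyruvate oxidation, and Sh2d3c (-0.74). They were chosen after their values were seen, and 11 of 11549 genes had an r at or under -0.7. Pdk4 ran from 19.7 to 763 FPKM over the libraries and Cirbp from 5.31 to 36.6 FPKM.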
